A study of Mus musculus with 4 samples.

Results

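The genes described here are the sirtuins and the enzymes of NAD metabolism that can be followed in RNA from the liver of ageing mice. They are the sirtuins Sirt1, Sirt2, Sirt3, Sirt5, Sirt6 and Sirt7, and the enzymes Nampt, Nnmt and Qprt. The members were chosen by gene symbol, 9 of 33924 symbols in the count tables, and all 9 had at least 1 count in every library. The sirtuin Sirt4 is not a member and had 1 count in each library.

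The 4 libraries were made from liver RNA of male mice of the C57BL/6Rj strain (C57BL6 in the labels) aged 3, 9, 15 and 21 months, called Young, Adult, Old and Very old. Each was 1 pool of 24 mice, from 6 times of the day with 4 mice each and 1 μg of RNA per mouse, so that time of day was averaged by the pooling and no difference between mice can be seen. The labels give neither a mutation nor a treatment for any group, and all mice were fed ad libitum under 12 h of light and 12 h of dark. As there was 1 library per age, no value has a replicate error. The intervals and the chi-square tests cover counting error only and compare libraries, whereas the test for a trend with age takes its error from the scatter of the 4 libraries around a line. The age and the library cannot be told apart.

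NAD is the electron carrier of metabolism and also the substrate that sirtuins cleave each time they remove an acyl group from a protein. The cleavage releases nicotinamide, which Nampt returns to NAD in the rate-limiting step of the salvage route and which Nnmt methylates for excretion. The liver in addition makes NAD from tryptophan, with Qprt converting quinolinic acid at the entry into the NAD precursors. Sirt1, Sirt6 and Sirt7 are nuclear, Sirt2 is mainly cytosolic, and Sirt3 and Sirt5 are mitochondrial.

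The counts on genes amounted to 955934, 958586, 525772 and 735962 at 3, 9, 15 and 21 months, so that 3 counts, taken as the floor of detection, corresponded to between 3.13 and 5.71 CPM, that is, counts scaled to a total of 1e+06 counts on genes. The 15 month library was the shallowest. The share of records without a unique alignment was 72.2 to 76.7%. Markers of hepatocytes (5 of 5 counted in every library) summed to between 73700 and 83400 CPM, the most of all cell types looked at. Markers of Kupffer cells summed to between 659 CPM at 3 months and 876 CPM at 21 months (6 of 6 in every library), and those of stellate cells to 327 CPM at 3 months and 510 to 564 CPM later (5 of 5). Markers of sinusoidal endothelium summed to between 681 and 709 CPM (5 of 5). This sum hid opposite changes, as Stab2 went from 143 to 80.2 CPM and Lyve1 from 20.9 to 43.5 CPM from 3 to 21 months. By the chi-square test described below, 4 of these 5 markers differed between libraries, 2 higher and 2 lower at 21 months. Of the Kupffer markers 4 of 6 differed and of the stellate markers 2 of 5, all higher at 21 months. All 5 hepatocyte markers differed, 1 higher and 4 lower at 21 months. Alb, which made up most of their sum (54600 to 65200 CPM), had a ratio of 21 to 3 months of 1.16. The ratio was 0.415 for Cyp3a11, 0.757 for Ttr, 0.922 for Serpina1c and 0.954 for Apoa1. Among all genes 25.3% differed. Markers of lymphocytes, neutrophils and cholangiocytes summed to at most 41.8 CPM in any library, with Ms4a1, S100a9, Ly6g, Retnlg and Epcam at 0 in all 4. Of these markers, 1 of lymphocytes (Ptprc), 1 of neutrophils (S100a8) and 3 of cholangiocytes (Krt19, Spp1 and Sox9) had counts in every library. The part of these other cells in the results below was not tested, and in a bulk library fewer cells of a type and less RNA per cell cannot be told apart.

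Capped 5’-ends were selected when the libraries were made, so that the sequence just before the start of a gene is the region that the reads border on. RefSeq holds such promoter sequences (build GRCm38.p6) for 8 of the 9 members, with Nnmt missing from the table. The 250 bases before the RefSeq start are shown for the 3 members of these 8 whose counts differed between libraries, as described below (Sirt2, Nampt and Qprt), and for Sirt1, the member that holds the E-box of the circadian clock. The same letters were found in NCBIM37 (mm9), the build of the count tables, at chr7:29551521-29551770 on the plus strand (Sirt2), chr12:33504950-33505199 on the plus strand (Nampt), chr7:134265544-134265793 on the minus strand (Qprt) and chr10:62801784-62802033 on the minus strand (Sirt1). These starts are not always those of the GENCODE annotation of NCBIM37: 17 bases of the Sirt2 window, 197 of the Qprt window and all 250 of the Sirt1 window lie inside the annotated gene, compared with 0 for Nampt. Capitals mark matches on either strand. The E-box was searched for with the letters CACGTG, a palindrome. For the GC box the search used GGGCGG, and overlapping matches were counted separately. The box of the factor NF-Y was searched for as CCAAT. The letters of the TATA box were TATAAA, which gave no match in these sequences.
Sirt2: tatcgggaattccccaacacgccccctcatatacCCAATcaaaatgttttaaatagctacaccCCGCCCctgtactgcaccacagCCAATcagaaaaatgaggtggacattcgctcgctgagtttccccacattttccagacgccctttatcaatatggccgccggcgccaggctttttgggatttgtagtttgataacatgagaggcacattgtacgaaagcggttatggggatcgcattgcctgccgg
Nampt: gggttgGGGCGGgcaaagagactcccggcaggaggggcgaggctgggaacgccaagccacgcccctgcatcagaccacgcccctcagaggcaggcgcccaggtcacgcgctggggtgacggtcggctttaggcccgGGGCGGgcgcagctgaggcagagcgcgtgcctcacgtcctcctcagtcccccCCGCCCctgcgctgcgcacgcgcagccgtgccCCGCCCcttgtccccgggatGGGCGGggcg
Qprt: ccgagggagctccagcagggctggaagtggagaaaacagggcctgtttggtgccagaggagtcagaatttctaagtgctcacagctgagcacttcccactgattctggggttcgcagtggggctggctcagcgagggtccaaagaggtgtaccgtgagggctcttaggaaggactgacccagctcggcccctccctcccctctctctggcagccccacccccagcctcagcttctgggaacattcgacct
Sirt1: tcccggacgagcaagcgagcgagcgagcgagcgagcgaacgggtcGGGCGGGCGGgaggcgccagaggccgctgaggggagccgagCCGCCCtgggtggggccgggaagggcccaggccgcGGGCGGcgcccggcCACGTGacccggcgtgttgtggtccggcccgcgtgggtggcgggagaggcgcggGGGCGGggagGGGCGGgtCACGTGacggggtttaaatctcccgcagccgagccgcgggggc

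The table holds 10 promoters of the 8 members, with 2 each for Sirt3 and Sirt6. No TATA box was found in any of the 10, compared with 12.4% of 32851 mouse promoters of the same length. A GC box, the letters bound by Sp factors, was present in 7 of the 10, compared with 32.7% of all promoters, and absent from that of Qprt and from 1 of the 2 promoters each of Sirt3 and Sirt6. Nampt had 5 matches, at 244, 114, 62, 30 and 10 bases before its start. The share of G and C in the 10 sequences ran from 48.8% (Sirt7) to 79.2% (Sirt1), and the median over all promoters was 52.4%. A CCAAT box was present in 3 of the 10 (Sirt2, Sirt5 and 1 of the promoters of Sirt3), compared with 33.8% of all promoters. The Qprt sequence held none of the searched letters and 6 CG dinucleotides, which is the median over all promoters, whereas Nampt held 27, Sirt1 39 and Sirt2 13. An E-box, the site of Clock and its partners, occurred before 6.02% of all promoters and among the members before Sirt1 alone, at 115 and 43 bases from its start. A match of letters is a description and not a site of binding, and its absence covers only this window.

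In terms of expression, the member genes spanned a wide range of levels. Per kilobase (kb) of exon and averaged over the 4 libraries, Qprt was highest with 98.0 CPM per kb (from 87.7 to 119 over the libraries), followed by Nnmt with 68.0 (from 48.5 to 86.7), Sirt2 with 32.5 (from 27.0 to 47.4) and Sirt3 with 19.8 (from 14.0 to 27.9). Nampt with 4.57 CPM per kb (from 1.61 to 7.95), Sirt5 with 3.35 (from 1.88 to 5.27) and Sirt7 with 3.07 (from 1.83 to 5.28) overlapped in their ranges. Sirt1 with 0.842 CPM per kb (from 0.392 to 1.43) and Sirt6 with 0.762 (from 0.488 to 1.13) also overlapped and were the lowest. The ranges of Qprt, Nnmt and Sirt2 did not overlap, but those of Sirt2 and Sirt3 did. The order depended on the length. Without it, the mean was 259 CPM for Qprt, 116 for Sirt2, 107 for Nnmt, 31.1 for Sirt3 and 20.8 for Nampt. Sirt7 had 15.8 CPM, Sirt5 7.27, Sirt1 4.49 and Sirt6 2.12. The overlaps also depended on the length. In CPM, the ranges of Nnmt (76.4 to 137) and Sirt2 (96.2 to 169) overlapped, whereas those of Sirt2 and Sirt3 (21.9 to 43.7) did not. Reads were taken from capped 5’-ends, so that by design their number is not meant to grow with the length of a transcript. The values per kb, and their order, carry this limit. How closely CPM follows the number of molecules was not tested.

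All 9 members are protein-coding in the GENCODE annotation of NCBIM37. Sirt2 (chromosome 7, 29551754 to 29573684) and Nampt (chromosome 12, 33505200 to 33538234) are on the plus strand. Sirt7 (chromosome 11, 120479686 to 120486554), Nnmt (chromosome 9, 48399982 to 48413258) and Qprt (chromosome 7, 134250628 to 134265740) are on the minus strand. Of the windows of 35 bases, the read length, in the coding transcripts of Qprt and Nampt, 20.4% and 13.7% also occurred at another place when up to 1 mismatch was allowed. Of the windows within the first 100 bases none did so for any member. Some members overlap a neighbour, and whether the counting used the strand was not given in the sources used here. Sirt2 shares 778 bases with Nfkbib on the opposite strand (4, 10, 1 and 8 counts at 3, 9, 15 and 21 months). Sirt3 shares 342 bases with Psmd13 on the opposite strand (79, 61, 31 and 59 counts), Sirt7 shares 124 bases with Mafg on the same strand (24, 31, 18 and 28 counts) and Nampt shares 5033 bases with the non-coding Gdap10 on the same strand (10, 6, 3 and 5 counts).

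**Figure D1:**
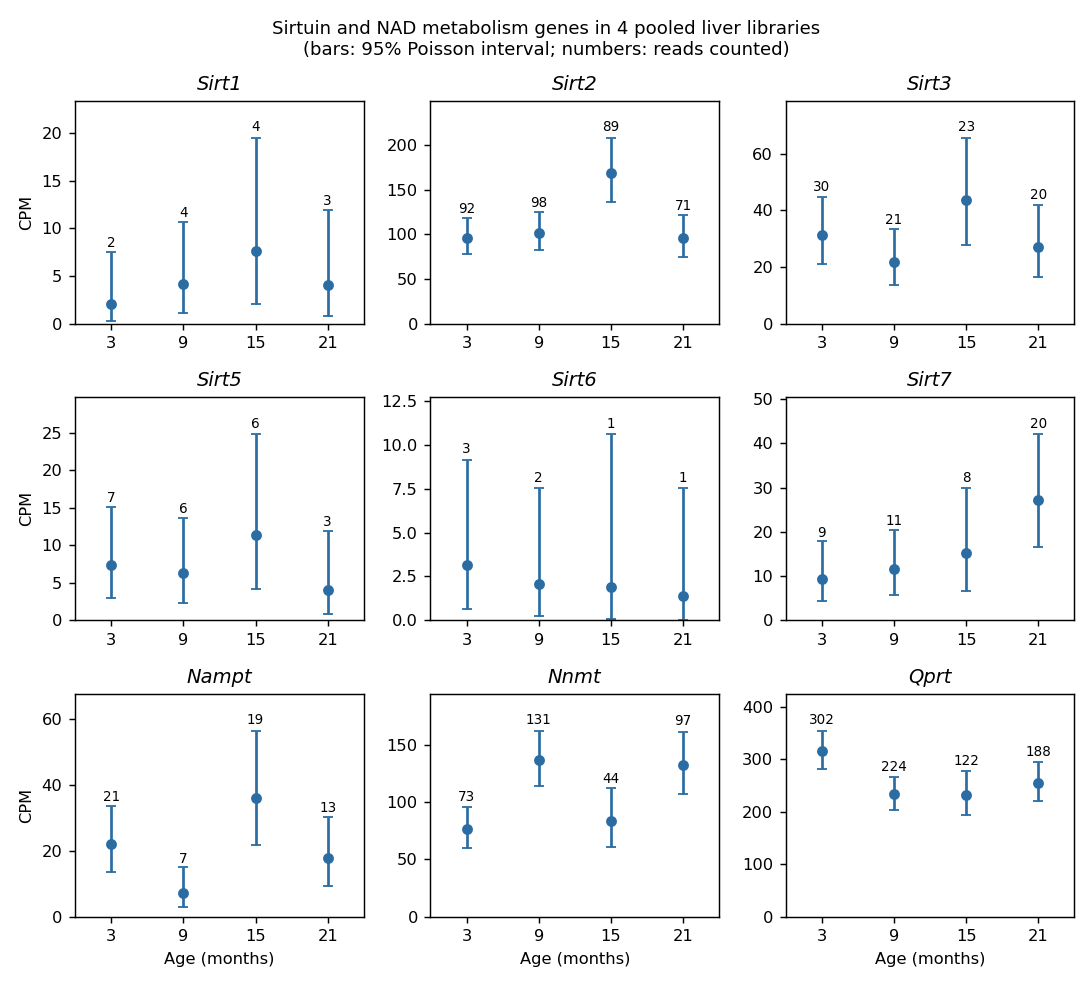
Level of each member (CPM, linear axis from 0) against the age of the pooled library (months), with the reads counted written above the points and bars for the 95% Poisson interval, which covers counting error only. Sirt2 was highest at 15 months with 169 CPM, Nampt lowest at 9 months with 7.3 CPM, and Sirt7 highest at 21 months with 27.2 CPM, while Sirt1 and Sirt6 rested on at most 4 counts per library.

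To ask whether the counts of a gene differed between the 4 libraries by more than counting error, Pearson’s chi-square test was used with the geometric means of the libraries as their sizes and with Benjamini-Hochberg adjustment over all genes. Of the 8704 genes with a count in every library, 25.3% differed at an adjusted p of 0.05. Of the 9 members 4 did, namely Sirt2, Nampt, Nnmt and Qprt. Counts matter for such a call: it was made for 6.46% of the genes with 4 to 19 counts in all (as Sirt1 and Sirt6), 19.5% with 20 to 49 (Sirt5 and Sirt7), 25.0% with 50 to 99 (Sirt3 and Nampt), 34.6% with 100 to 499 (Sirt2 and Nnmt) and 74.5% with at least 500 (Qprt). A linear trend with age, in contrast, was found for none of the 6 members that had enough counts for this test (adjusted p = 0.998 for each by edgeR’s quasi-likelihood test, 0 members also at an unadjusted p of 0.05, and 0 by DESeq2). Over all genes 0.108% passed, 6 of 5569. The slopes of the 6 members were between -0.018 ± 0.02 (SE) for Qprt and 0.083 ± 0.05 (SE) for Sirt7 on the log2 scale per month.

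Among the sirtuins, Sirt2 is a tubulin deacetylase, and it was one of the genes that the study set out to examine for constant expression. In the paper it passed every assessment, including Nanostring measurements of individual samples. The authors placed it in their core set for normalisation, with Atp5h and Gsk3β. For RNA-sequencing, their criterion was a variance below and a level above the median of the genes, which the chi-square test does not measure. By the variance described below, Sirt2 had 0.0539 here, compared with a median of 0.16. Among genes with at least 10 counts in every library it was above the median. In the counts used here, Sirt2 had 92, 98, 89 and 71 at 3, 9, 15 and 21 months. This was 96.2 CPM (95% interval 77.6 to 118), 102 CPM (83.0 to 125), 169 CPM (136 to 208) and 96.5 CPM (75.3 to 122). The 15 month library was thus high, with an interval that did not overlap the others, and the remaining 3 were alike. Scaled by the geometric means, Sirt2 was 1.61 times as high at 15 as at 3 months (95% exact interval 1.19 to 2.18), and its ratio of 21 to 3 months was 0.976 (0.706 to 1.34). The 4 counts differed beyond counting error (chi-square test, adjusted p = 0.0159), but without the 15 month library the adjusted p was 0.809. The call of Sirt2 thus rested on the library with the fewest reads. For this library the scale also mattered: the median gene had a log2 ratio of 15 to 3 months of -0.05 with the geometric means and of 0.08 with the library totals. For Sirt2 this log2 ratio was 0.69 with the geometric means and 0.81 with the library totals. With the totals the chi-square test also called Sirt2 (adjusted p = 0.00167).

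The other sirtuins were measured less precisely. Sirt3, the main deacetylase of mitochondria, had 30, 21, 23 and 20 counts (31.4, 21.9, 43.7 and 27.2 CPM), and its 4 counts did not differ beyond counting error (adjusted p = 0.391). Like Sirt2 it had its highest CPM at 15 months, with a ratio to 3 months of 1.27 (0.707 to 2.27). Sirt7, a nucleolar protein that acts on the genes of ribosomal RNA, had 9, 11, 8 and 20 counts (9.41, 11.5, 15.2 and 27.2 CPM). The 21 month library was the highest, 2.81 times the 3 month library (1.22 to 7.01) and 2.25 times the 9 month library (1.03 to 5.19). These intervals are not corrected for the number of ratios looked at, and the chi-square test over all libraries did not pass (adjusted p = 0.0815). Sirt5, a mitochondrial desuccinylase, had 7, 6, 6 and 3 counts, and with a ratio of 21 to 3 months of 0.542 (0.0904 to 2.37) a difference was not detectable at this depth. Sirt1, the deacetylase of Foxo factors and p53 and the most studied sirtuin, had 2, 4, 4 and 3 counts, and Sirt6, a chromatin deacetylase involved in DNA repair, had 3, 2, 1 and 1. Both were at or near the floor of 3 counts in every library, so that a change with age was not detectable at this depth. The smallest expected counts for Sirt1, Sirt5 and Sirt6 were 2.32, 3.93 and 1.25, at which the chi-square test is only approximate (adjusted p = 0.66, 0.671 and 0.907).

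Considering the sirtuins as a pool, the 6 genes together had 143, 142, 131 and 118 counts, or 150, 148, 249 and 160 CPM. Sirt2 made up most of the pool in each library, with shares of 64.3, 69.0, 67.9 and 60.2% (95% Wilson intervals between 51.2 and 76.0%). The summed level was highest at 15 months (95% interval 208 to 296 CPM, compared with 126 to 176 CPM at 3 months). Without Sirt2 the remaining 5 sirtuins reached 53.4, 45.9, 79.9 and 63.9 CPM. The share of Sirt7 was 6.29% (3.35 to 11.5%), 7.75% (4.38 to 13.3%), 6.11% (3.13 to 11.6%) and 16.9% (11.2 to 24.7%), and the interval at 21 months overlapped those before it. Within a library, depth and scale cancel. There were 10.2 (95% exact interval 5.16 to 23.1), 8.91 (4.77 to 18.4) and 11.1 (5.41 to 26.6) reads of Sirt2 per read of Sirt7 at 3, 9 and 15 months. At 21 months there were 3.55 (2.14 to 6.16), and this interval overlapped all the others.

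Nampt, the enzyme that limits the salvage of nicotinamide, had the highest variance of the members over the 4 libraries, as described below, though not without the 9 month library. It had 21, 7, 19 and 13 counts, which was 22.0 CPM (95% interval 13.6 to 33.6), 7.3 CPM (2.94 to 15.0), 36.1 CPM (21.8 to 56.4) and 17.7 CPM (9.41 to 30.2). The 9 month library was low and the 15 month library high, with intervals of these 2 that did not overlap. Compared with 3 months, Nampt was 0.341 times as high at 9 months (0.122 to 0.832), 1.5 times at 15 months (0.765 to 2.94) and 0.783 times at 21 months (0.36 to 1.64), and from 9 to 15 months the ratio was 4.41 (1.78 to 12.4). The 4 counts differed beyond counting error (adjusted p = 0.022), though no longer without the 9 month library (adjusted p = 0.348) or without the 15 month library (adjusted p = 0.137).

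Nnmt, which methylates nicotinamide at the expense of S-adenosylmethionine, had 73, 131, 44 and 97 counts. The levels were 76.4 CPM (59.9 to 96.0), 137 CPM (114 to 162), 83.7 CPM (60.8 to 112) and 132 CPM (107 to 161). The 4 libraries fell into pairs, with 9 and 21 months high and 3 and 15 months low, although the intervals at 15 and 21 months overlapped. Compared with 3 months, Nnmt was 1.84 times as high at 9 months (1.37 to 2.48) and 1.68 times at 21 months (1.23 to 2.31), while the ratio at 15 months was 1.0 (0.673 to 1.48). This was the clearest difference of all members relative to counting error (adjusted p = 0.000149), and it passed the test without any of the 4 libraries in turn.

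Qprt, which feeds quinolinic acid from tryptophan into NAD, was the most abundant member and had 302, 224, 122 and 188 counts. It reached 316 CPM (281 to 354) at 3 months, compared with 234 CPM (204 to 266), 232 CPM (193 to 277) and 255 CPM (220 to 295) later. The youngest library was thus the highest, although the intervals at 3 and 21 months overlapped. The 3 later libraries overlapped each other in their intervals. The ratios to 3 months were 0.758 at 9 months (0.635 to 0.905), 0.672 at 15 months (0.54 to 0.831) and 0.787 at 21 months (0.653 to 0.947). The counts differed beyond counting error (adjusted p = 0.00332), but without the 3 month library no difference was detectable between the rest (adjusted p = 0.565).

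**Figure D2:**
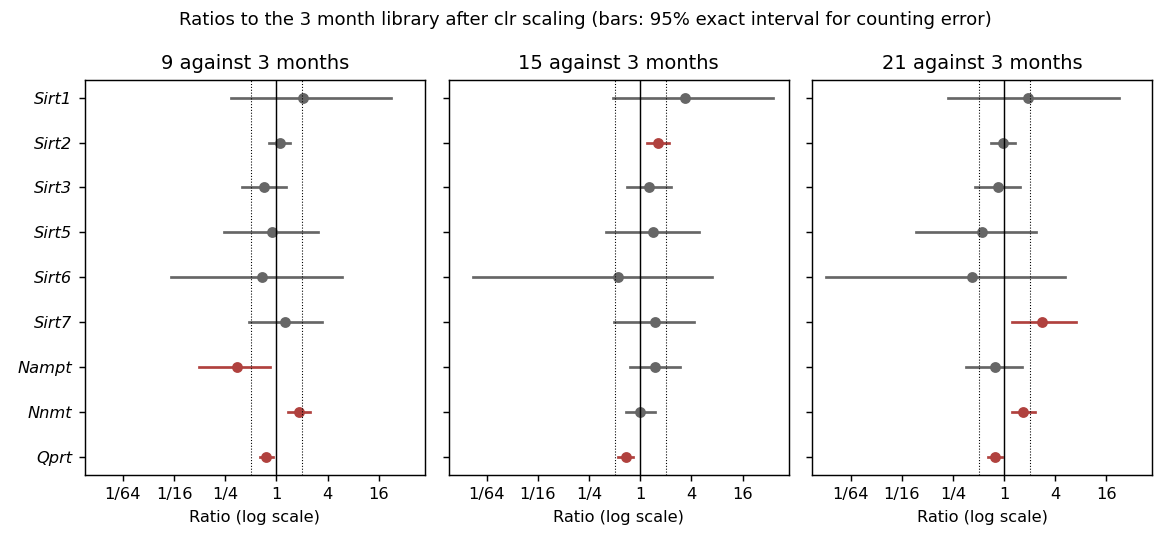
Ratio of the 9, 15 and 21 month library to the 3 month library for each member (log axis) with the 95% exact interval for counting error, red where the interval excludes 1, and dotted lines at 0.5 and 2. Qprt was below 1 at all 3 ages, Nnmt above 1 at 9 and 21 months, Nampt below 1 at 9 months, Sirt2 above 1 at 15 months and Sirt7 above 1 at 21 months.

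Across the members, few ratios reached 2-fold, a size set as a mark since 1 library per age leaves no error between mice. At 9 compared with 3 months, 2 of 9 members were past 2-fold (Sirt1 higher and Nampt lower), compared with 28.3% of all genes. At 15 months it was 1 member (Sirt1 higher), compared with 32.0%, and at 21 months 2 members (Sirt7 higher and Sirt6 lower), compared with 29.8%. The 2-fold values of Sirt1 and Sirt6 rested on 1 to 4 counts and their intervals included 1, for instance 0.477 to 36.8 for the Sirt1 ratio of 3.33 at 15 months. The interval, without correction for the number of ratios, excluded 1 for 3 members at 9 months, 2 at 15 months and 3 at 21 months, compared with 21.0, 19.7 and 19.7% of all genes. The median log2 ratio over the 9 members was -0.19, 0.51 and -0.25 at 9, 15 and 21 months, compared with 0.03, -0.05 and -0.01 over all genes, and 4, 7 and 3 of the 9 were higher than at 3 months. All 3 comparisons share the 3 month library.

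Within a library, the ratio of Nnmt to Nampt gives the balance of reads between methylation and salvage of nicotinamide. It was 3.48 at 3 months (95% exact interval 2.12 to 5.95), 18.7 at 9 months (8.83 to 47.5), 2.32 at 15 months (1.32 to 4.2) and 7.46 at 21 months (4.16 to 14.5). The interval at 9 months lay above those at 3 and 15 months, whereas that at 21 months overlapped all others. The ratio of Qprt to Nnmt was 4.14 (3.19 to 5.42), 1.71 (1.37 to 2.14), 2.77 (1.95 to 4.01) and 1.94 (1.51 to 2.5), highest at 3 months and beyond the intervals at 9 and 21 months. As both ratios contain Nnmt, they are not independent of each other.

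**Figure D3:**
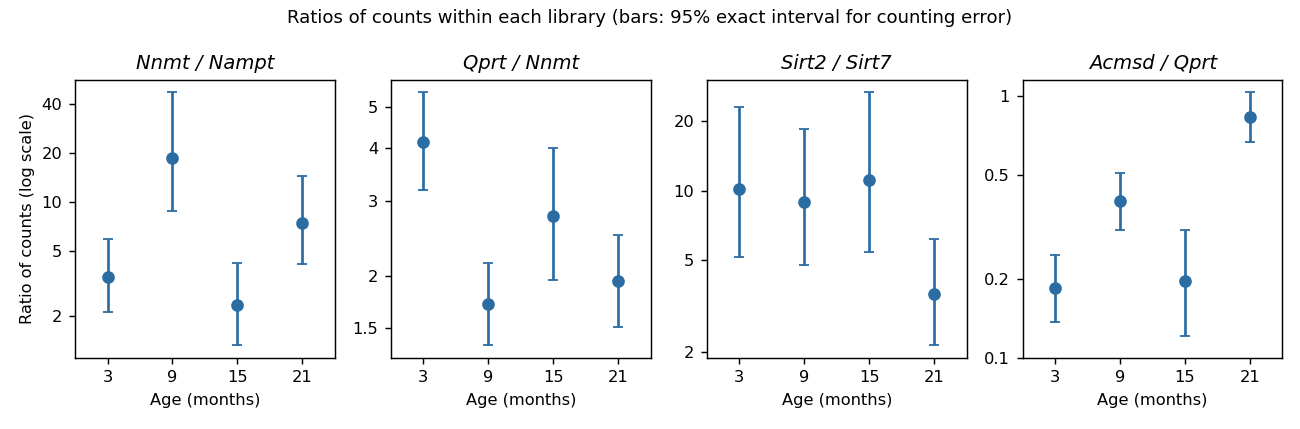
Ratios of the reads of pairs of genes within each library (log axis) against age (months), with bars for the 95% exact interval for counting error. Nnmt to Nampt peaked at 9 months with 18.7, Qprt to Nnmt was highest at 3 months with 4.14, Sirt2 to Sirt7 was lowest at 21 months with 3.55, and Acmsd to Qprt was highest at 21 months with 0.835.

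To place the members among all genes, the centered log-ratio (clr) was used, that is, the natural logarithm of a count over the geometric mean of its library. The study applied this measure to reads at transcription start sites of a selected set of genes, whereas here it covers all gene symbols with a count in every library, so that the medians are not those of the study. The variance of the clr over the 4 ages was 0.0278 for Qprt, 0.0539 for Sirt2, 0.0609 for Sirt3, 0.107 for Nnmt, 0.133 for Sirt6, 0.16 for Sirt5, 0.197 for Sirt7, 0.244 for Sirt1 and 0.392 for Nampt, and the median over all genes was 0.16. A total of 5 members were below this median (Sirt2, Sirt3, Sirt6, Nnmt and Qprt), and 4 of these (all but Sirt6) were also above the median in their mean clr. Both criteria together were met by 38.1% of all genes. When each library was left out in turn, the variance ranged from 0.00415 (without 15 months) to 0.0774 for Sirt2, from 0.0266 (without 15 months) to 0.0857 for Sirt3, from 0.0366 (without 21 months) to 0.291 for Sirt7 and from 0.0899 to 0.125 for Nnmt. It ranged from 0.00742 (without 3 months) to 0.0432 for Qprt and from 0.107 (without 9 months) to 0.58 for Nampt. For Sirt1, Sirt5 and Sirt6 it ranged from 0.0908 to 0.36, from 0.0599 to 0.237 and from 0.0596 to 0.197. Without the 9 month library, Sirt1 (0.357), Sirt7 (0.271), Sirt5 (0.237) and Sirt6 (0.197) all had a higher variance than Nampt. Single libraries thus decided most of these values. The variance contains counting noise, which shrinks with the counts. It was 0.333 for Sirt1, 0.202 for Sirt5 and 0.708 for Sirt6, more than their measured variances, but 0.0116 for Sirt2, 0.0136 for Nnmt, 0.00532 for Qprt and 0.08 for Nampt, well below them. When the comparison was restricted to genes with at least 10 counts in every library, Qprt was the only member left below the median variance, and Sirt2, Sirt3 and Nnmt were above it.

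**Figure D4:**
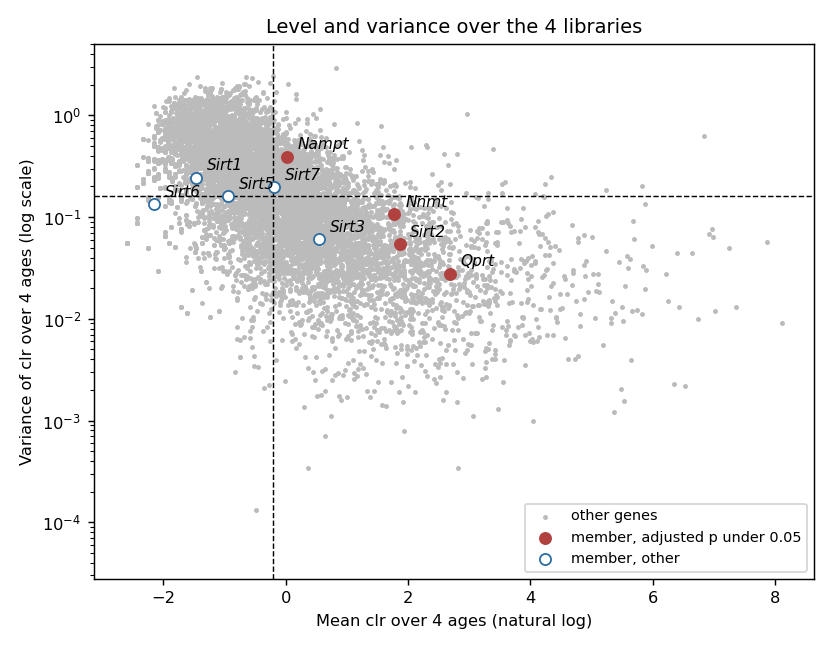
Variance of the clr over the 4 ages (log axis) against its mean (natural logarithm) for 8704 genes, with the medians as dashed lines and the members named, filled red where their 4 counts differed at an adjusted p of 0.05. Qprt, Sirt2, Sirt3 and Nnmt lie in the lower right quadrant, and Nampt has a variance of 0.392, the highest of the members with all 4 libraries.

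By the root-mean-square difference between clr values centred over the 4 ages, the profile of Sirt2 was close to those of Rpl7 (0.0177) and Rbm47 (0.0208) among 1955 genes with at least 20 counts in every library. Sirt3 was close to Tmco1 (0.0186) and Abca8a (0.0241). Nnmt was most like Cyp2c70 (0.0496), Rhoa (0.0507) and Bzw1 (0.0548), and Qprt was most like Serpina10 (0.00555), Got2 (0.0104) and F2 (0.0142). With 4 libraries all of these distances are smaller than the 0.0826 to 0.29 that counting noise alone would give, so that these genes cannot be ranked.

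The other genes of NAD metabolism and the known targets of sirtuins were looked at in 8 lists. Of 72 genes found, 63 had counts in every library and 28 of these (44.4%) differed between the libraries, compared with 25.3% of all genes, but none followed a linear trend with age (0 of 55 tested, lowest adjusted p = 0.205 by edgeR). Many of these genes have high counts, at which the call is made more often.

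In the route from tryptophan, 5 of 8 measured genes differed between libraries (Tdo2, Ido2, Kmo, Haao and Acmsd), 1 of them higher and 4 lower at 21 than at 3 months. Acmsd, which diverts the pathway away from quinolinic acid and thus from Qprt, had 56, 89, 24 and 157 counts, and was 3.55 times as high at 21 as at 3 months (adjusted p = 2.22e-24). Per read of Qprt there were 0.185 reads of Acmsd at 3 months (95% exact interval 0.137 to 0.247), 0.397 at 9 months (0.307 to 0.51), 0.197 at 15 months (0.121 to 0.307) and 0.835 at 21 months (0.671 to 1.04). The 21 month library thus stood above the other 3. Tdo2, the first enzyme of the route, had 995, 1435, 463 and 761 counts, with ratios to 3 months of 1.47, 0.774 and 0.967 (adjusted p = 4.3e-42), and Ido2, a related dioxygenase, was lowest at 15 months with a ratio of 0.558 (adjusted p = 0.0283). Ido1 had no count in any library. For the measured genes of the route the median log2 ratio was -0.04, -0.43 and -0.14 at 9, 15 and 21 months.

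In the salvage and Preiss-Handler routes, which use nicotinamide, nicotinamide riboside and nicotinic acid, none of the 6 measured genes differed beyond counting error, nor did any of the 5 genes of NADP formation. The median log2 ratios were -0.4, 0.11 and -0.56 for the former and 0.16, 0.04 and -0.24 for the latter. Among them Naprt1, the enzyme for nicotinic acid, had 42, 23, 20 and 22 counts (adjusted p = 0.241; named after its values had been seen). Nmnat2, Itgb1bp3 and Pnp2 had no counts. Among all genes 25.3% differed, but only 6.46% of those with 4 to 19 counts in all. Nmnat1 (4, 1, 4 and 1 counts), Nt5e (6, 3, 6 and 3) and Nudt13 (3, 10, 2 and 3) had so few. The lists of this paragraph summed to at most 144 and 168 CPM, compared with at least 2270 CPM for the route from tryptophan. A lack of calls here is therefore not a sign of stable expression.

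Of the other consumers of NAD, 4 of 10 measured genes differed between the libraries (Parp3, Parp4, Parp14 and Tnks2), 3 higher and 1 lower at 21 months. Tnks2, a tankyrase, had 9, 17, 10 and 41 counts and was 5.76 times as high at 21 as at 3 months (adjusted p = 3.63e-07). Parp4, the poly-ADP-ribose polymerase of vault particles, had 7, 15, 4 and 22 counts, with a ratio of 3.97 (adjusted p = 0.00712). Parp14, a mono-ADP-ribosyltransferase, had 49, 19, 14 and 11 counts and went the opposite way, with ratios of 0.397, 0.475 and 0.284 at 9, 15 and 21 months (adjusted p = 0.000266). As a median of the list, the log2 ratio was 0.67, 0.21 and 0.62, and Bst1 had no count.

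Nnmt depends on the methyl cycle, and of the 6 genes for this cycle and for the clearance of nicotinamide 5 differed between libraries (Aox3, Cyp2e1, Mat1a, Ahcy and Gnmt), 4 higher and 1 lower at 21 months. Ahcy, which removes S-adenosylhomocysteine, had 70, 101, 21 and 61 counts, with ratios of 1.48, 0.499 and 1.1 (adjusted p = 0.000406). Gnmt, another consumer of S-adenosylmethionine in liver, had 279, 412, 149 and 263 counts, with ratios of 1.51, 0.888 and 1.19 (adjusted p = 2.94e-08). Mat1a, which makes S-adenosylmethionine, had 2095, 2491, 1016 and 1906 counts, with ratios of 1.22, 0.806 and 1.15 (adjusted p = 9.79e-29). These 3 genes were high at 9 months and low at 15 months compared with 3 months, as far as the ratios go, while Nnmt had 1.84, 1.0 and 1.68. Over the list, the median log2 ratio was 0.31, -0.25 and 0.17.

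Among the substrates of mitochondrial sirtuins, 5 of 9 measured genes differed, 2 higher and 3 lower at 21 months, with Sod2, Glud1, Cps1 and Otc among them. Sod2, the superoxide dismutase of mitochondria, had 95, 68, 32 and 43 counts, with ratios to 3 months of 0.732, 0.56 and 0.572 (adjusted p = 0.0176). Cps1, which starts the urea cycle and is a Sirt5 target, had 2790, 4021, 1504 and 2519 counts and ratios of 1.47, 0.896 and 1.14 (adjusted p = 3.19e-83). Over the list, the median log2 ratio was -0.08, -0.16 and -0.16.

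Among the nuclear and cytosolic substrates, 7 of 11 genes differed (Foxo3, Trp53, Srebf1, Nr1h3, Nr1h4, Acss2 and Crtc2), 5 higher and 2 lower at 21 months. Crtc2, a coactivator of the fasting response, had 32, 10, 9 and 5 counts and a ratio of 0.198 at 21 months (adjusted p = 0.000881). Foxo3, a transcription factor of stress resistance, had 24, 43, 11 and 42 counts and a ratio of 2.21 (adjusted p = 0.00462). Trp53 had 19, 32, 3 and 17 counts and was low at 15 months with a ratio of 0.263 (adjusted p = 0.018). The median log2 ratio of the list was -0.04, -0.53 and 0.23.

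Nampt is a known target of the circadian clock. Of 8 genes of the clock 2 differed between the pools (Clock and Dbp), compared with 25.3% of all genes, a similar share. Both were lower at 21 than at 3 months, while Arntl, Npas2, Per1, Per2, Cry1 and Nr1d1 did not differ beyond counting error. Clock, the partner of Arntl in the activation of E-boxes, had 29, 9, 16 and 5 counts and ratios of 0.317, 0.917 and 0.218 (adjusted p = 0.0019), beside ratios of 0.341, 1.5 and 0.783 for Nampt. Both were low at 9 months, but at 21 months the ratio of Clock was the lower. Dbp, an output gene of the clock, had 55, 27, 17 and 27 counts and ratios of 0.502, 0.514 and 0.621 (adjusted p = 0.0302). By Nanostring, the paper compared individual samples of mice aged 3 months with mice older than 21 months. It reported no down-regulation of Clock or Dbp mRNA in that comparison, whereas the values here come from 1 pool per age. The median log2 ratio of the list was -0.44, -0.49 and -0.25.

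**Figure D5:**
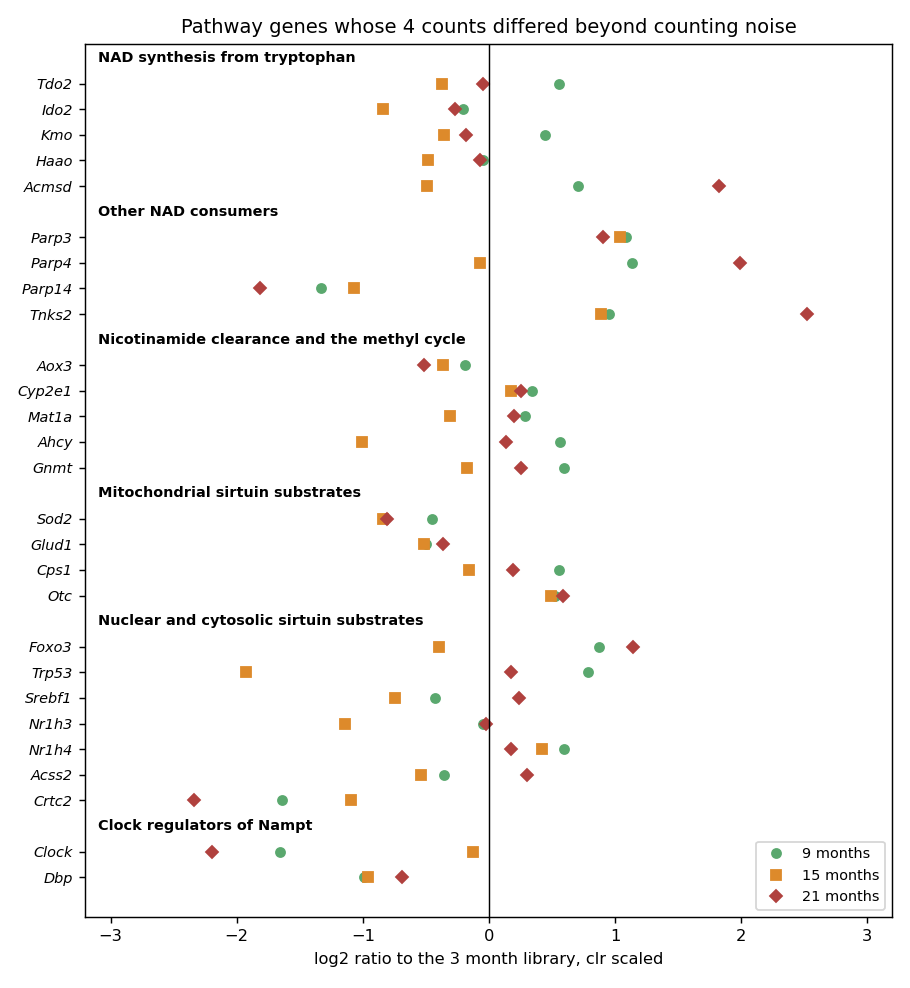
log2 ratio to the 3 month library at 9, 15 and 21 months (circles, squares and diamonds) for genes of the lists whose 4 counts differed beyond counting error, grouped by list. At 21 months Tnks2, Parp4 and Acmsd lie farthest to the right with ratios of 5.76, 3.97 and 3.55, and Crtc2, Clock and Parp14 farthest to the left with 0.198, 0.218 and 0.284.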

How the data were processed

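Liver RNA of 4 age classes was pooled, digested to remove uncapped RNA, and sequenced by the authors from the 5’-ends (35 bp reads, SOLiD 5500xl, 1 lane for all libraries). They mapped the reads to mm9 with the CLC Genomic workbench, and the processing notes also name HTSeq, whose version was not given in the sources used here. The deposited values are raw counts of reads per gene symbol, without normalisation; records without a unique alignment or a gene were left out, and 6.67 to 8.42% of records were on genes. The members and gene lists were chosen with earlier results of these data known.

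Libraries were scaled by the geometric mean over 8704 genes with a count in every library (clr). Chi-square tests had 3 degrees of freedom, the edgeR trend (TMM, filterByExpr) 2 residual degrees of freedom. Ratios carry 95% Clopper-Pearson intervals, CPM Poisson intervals. Named genes were the 9 members, per list up to 3 called genes with the largest variance of clr, any gene called by the trend, and the 3 genes most alike to each member with 20 counts in every library. Of the genes named by this rule, 3 are not reported here. Alternatives were other scalings, a minimum of 10 counts, a pseudocount of 0.5, no filter, DESeq2 and leaving out each library. The tests were checked on simulated counts, with counting error alone for the chi-square test. For the trend, the simulated scatter between libraries was smaller than the fitted one (common dispersion of 0.0733). These checks therefore do not show how the tests behave with the scatter of real libraries. Software was Python 3.11.15 (numpy 2.4.6, pandas 2.3.3, scipy 1.17.1, numba 0.67.0, matplotlib 3.10.9) and R 4.3.3 (edgeR 4.0.16, DESeq2 1.42.0).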

Additional observations from a re-analysis of the deposited data

How the results depend on the processing

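The number of members whose counts differed between libraries was 4, and between 2 and 4 when each library was left out; the value of 2 (Nnmt and Qprt) came without the 15 month library. With at least 10 counts in every library it was 3, since Nampt was then not tested. The trend with age gave 0 members under every alternative, with 0 members at an unadjusted p of 0.05 and a lowest adjusted p of 0.755 by edgeR (without the 21 month library), while over all genes its calls ranged from 0 with DESeq2 to 23 without the 21 month library. Past 2-fold were 2, 1 and 2 members at 9, 15 and 21 months. With at least 10 counts these were 0, 0 and 0, as the genes concerned were not among those compared. With a pseudocount of 0.5 there was 1 at 9 months (Nampt) and 1 at 21 months (Sirt7), and with library totals 1 at 9 months (Nampt). Below the median variance were 5 members, 1 with at least 10 counts (Qprt), 8 with the pseudocount (all but Nampt) and between 5 and 7 when each library was left out. The age slopes of single members, none of which passed the test, changed sign when a library was left out, with log2 values per month from -0.0114 to 0.0646 for Sirt2, -0.0091 to 0.0348 for Sirt3, -0.0094 to 0.0846 for Nampt, -0.011 to 0.0389 for Nnmt and -0.0406 to 0.0048 for Qprt. That of Sirt7 kept its sign. In the chi-square test the call was lost in 4 cases: Sirt2 without the 15 month library, Nampt without the 9 or the 15 month library, and Qprt without the 3 month library. Depth limits Sirt1, Sirt5 and Sirt6. No paired analysis was possible because each age had 1 library.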
